A study of Arabidopsis thaliana with 108 samples.

Results

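The regions described here were 505 H3K4me3 peaks called in jmj14-1 seedlings of Arabidopsis thaliana that overlapped no peak, by even 1 bp, in the other 4 seedling H3K4me3 lists, which came from 2 Col-0 libraries and 2 trb1/2/3 libraries. They were 505 of the 17583 distinct jmj14-1 peaks on chromosomes 1 to 5. The regions were selected on the measured peak calls of these 5 lists, so their number, width, H3K4me3 fold enrichment and distance to other peaks are given as descriptions. jmj14-1 had 1 H3K4me3 library, so no replicate could be used to check whether a region was found again. Of the 108 samples of the series, 33 libraries were used. Col-0 was the wild type, jmj14-1 a T-DNA insertion mutant of the JMJ14 demethylase gene, and trb1/2/3 a triple T-DNA mutant of TRB1, TRB2 and TRB3, and these seedlings were 2 to 3 weeks old. JMJ14 binding came from 2 libraries, and the binding of each TRB from 4 libraries, of plants that carried the FLAG-tagged protein under its own promoter, labelled as floral tissue of 5 to 6 weeks. The FLAG-TRB transgenes were in the mutant of the same gene, and for FLAG-JMJ14 the background is not given in the sources used here beyond the Col-0 ecotype. H3K27me3 came from 2 Col-0 and 2 trb1/2/3 seedling libraries. A further 10 H3K4me3 libraries came from 3 samples of fwa, an epiallele in which the FWA gene has lost its DNA methylation and is expressed, and from fwa plants that also carried TRB1-ZF (3 libraries), TRB2-ZF (2) or TRB3-ZF (2), fusions of a TRB to a zinc finger directed to the FWA promoter. The TRB-ZF plants were early-flowering transgenic lines, while fwa flowers late. All 10 libraries are labelled as floral tissue of 5 to 6 weeks, while the methods describe leaves for the TRB-ZF histone ChIP. Tissue, age and genotype therefore cannot be told apart when these lists are set beside the seedling lists.

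H3K4me3 is a histone mark placed just inside the start of transcribed genes, and JMJ14 is a Jumonji-type enzyme that removes methyl groups from H3K4. JMJ14 works with the NAC-domain factors NAC050 and NAC052, which recognise a palindrome with the arms CTTG and CAAG, and TRB proteins bind telomere-like repeats, TTAGGG on one strand and CCCTAA on the other. H3K27me3 is the mark that Polycomb repressive complexes place over silent genes.

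Stretches of 7 windows are shown because they carry these short sequences at regions that the results below return to, and 6 genes are represented. All were read from the RefSeq TAIR10.1 genome in the direction of the named gene, and capitals mark the palindrome arms or each TTAGGG or CCCTAA. The first set holds palindromes, which were centred at chr1:25145373-25145493 for the non-coding RNA AT1G08913, chr5:21801265-21801385 for AT5G53700, chr1:5597151-5597271 for OCT6 and chr3:18638232-18638352 for AT3G50280, all on the plus strand.
AT1G08913: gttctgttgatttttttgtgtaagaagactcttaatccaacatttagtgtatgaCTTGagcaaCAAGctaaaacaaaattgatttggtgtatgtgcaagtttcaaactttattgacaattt
AT5G53700: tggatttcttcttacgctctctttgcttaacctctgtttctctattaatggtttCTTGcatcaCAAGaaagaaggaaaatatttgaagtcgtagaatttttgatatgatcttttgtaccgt
OCT6: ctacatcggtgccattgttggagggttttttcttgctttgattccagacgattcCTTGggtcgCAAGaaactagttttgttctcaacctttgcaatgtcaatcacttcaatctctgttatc
AT3G50280: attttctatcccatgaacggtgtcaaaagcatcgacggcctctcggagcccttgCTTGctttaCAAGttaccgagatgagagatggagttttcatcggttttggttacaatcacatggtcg
The palindrome of AT5G53700 lay 4 bp and 33 bp from the FLAG-JMJ14 summits of replicates 1 and 2, in an intron, and that of AT3G50280 lay 18 bp and 21 bp from them, in a coding exon. In OCT6 the distances were 75 bp and 105 bp, in a coding exon, and in AT1G08913 they were 301 bp and 246 bp, in a non-coding part of an exon.

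The second set holds 3 telomere-like repeats each, at chr1:25144933-25145198 (plus strand) for AT1G08913, chr4:2736582-2736687 (plus strand) for AT4G05380 and chr4:9859092-9859210 (minus strand) for HDG4.
AT1G08913: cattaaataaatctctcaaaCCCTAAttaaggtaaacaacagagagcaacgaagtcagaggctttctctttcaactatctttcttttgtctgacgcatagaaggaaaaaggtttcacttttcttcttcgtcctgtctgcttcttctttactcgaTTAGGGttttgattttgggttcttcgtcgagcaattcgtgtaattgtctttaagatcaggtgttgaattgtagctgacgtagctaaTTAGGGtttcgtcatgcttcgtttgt
AT4G05380: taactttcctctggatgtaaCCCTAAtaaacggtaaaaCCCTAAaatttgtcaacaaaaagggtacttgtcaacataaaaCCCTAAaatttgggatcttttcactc
HDG4: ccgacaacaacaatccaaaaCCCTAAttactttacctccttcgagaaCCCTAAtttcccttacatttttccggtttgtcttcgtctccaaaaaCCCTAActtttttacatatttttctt
The centre of this window lay 20 bp inside the annotated start of AT1G08913, 137 bp inside that of HDG4 and 525 bp inside that of AT4G05380. In HDG4 all 3 repeats were in the CCCTAA orientation along the gene, and in AT1G08913 both orientations occurred.

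The jmj14-1-only peaks were narrow and low. Their median width was 275 bp (147 to 1206 bp) against 821 bp for all jmj14-1 peaks, and they covered 166863 bp in all. Fold enrichment, the height of a peak over its local background as given by the peak caller, had a median of 2.03 (1.42 to 5.49) against 5.54 for all peaks. The median -log10 q was 4.75, and 92 regions (18.2%) reached 10, compared with 88.7% of all peaks. The nearest peak of the 4 other lists was a median of 1592 bp away and at most 33722 bp away, and 141 regions had one within 500 bp. The regions just inside the rule began 0, 1 and 7 bp from a neighbouring peak of another list (H3K4me3 folds 2.16, 1.96 and 1.95), and the peaks just outside it overlapped one by 2, 3 and 4 bp (folds 1.93, 1.9 and 2.04). The same rule gave 158 and 57 peaks found in one Col-0 list alone and 558 and 144 found in one trb1/2/3 list alone, so a count of this order was not particular to jmj14-1. The rule was stricter for those lists, since a peak had also to be missing from the other list of its own genotype. The count depended on single libraries, since it was 849 without the Col-0 replicate 1 list and 718 without the trb1/2/3 replicate 1 list. With the 5 lists cut to the length of the shortest it was 318. The regions lay on all 5 chromosomes, 154 on chromosome 1, 56 on 2, 103 on 3, 76 on 4 and 116 on 5, which was 2.12% to 3.31% of the jmj14-1 peaks of each.

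Like jmj14-1 peaks in general, most jmj14-1-only peaks lay on a gene, shortly after its start. The summit was inside an annotated gene in 480 of the 505 regions, up to 1 kb upstream of one in 20 and intergenic in 5, while among all jmj14-1 peaks 98.8% were inside a gene and 0.825% and 0.409% in the other classes. It was within 1 kb of a gene start in 396 regions (78.4%), compared with 94.6% of all jmj14-1 peaks. Among peaks with a -log10 q under 10 the shares were closer, at 75.5% of the jmj14-1-only peaks and 81.1% of the shared ones. Coding exons held 66.7% of the summits, near the 66.3% of all peaks, with 14.1% in introns and 14.3% in non-coding parts of exons.

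JMJ14 occupied many of these regions. A FLAG-JMJ14 peak was present at 229 regions (45.3%) in replicate 1 and at 225 (44.6%) in replicate 2. Regions bound in both lists, 4644 in the genome and called JMJ14 regions from here on, overlapped 211 of the 505 (41.8%, 95% Wilson interval 37.6 to 46.1), compared with 6.80% of all jmj14-1 peaks and 5.76% of the jmj14-1 peaks shared with another list. The intervals cover counting error only, and neighbouring regions are not independent. Among the peaks found in a single other list, 2.53% and 5.26% (Col-0 replicates 1 and 2) and 5.91% and 14.6% (trb1/2/3 replicates 1 and 2) lay on JMJ14 regions. The share in jmj14-1 was above each of the other 4, with intervals that did not overlap. These sets are not alike, because peaks found in both Col-0 lists or in both trb1/2/3 lists were left out. For jmj14-1, with a single list, no such peaks could be left out, and the part of this in the shares was not tested. Without the Col-0 replicate 1 list, 29.4% of 849 regions lay on JMJ14 regions. Seen from the other side, 200 of the 4644 JMJ14 regions held a jmj14-1-only peak, 1194 held any jmj14-1 peak and 809 held a Col-0 peak.

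**Figure D1:**
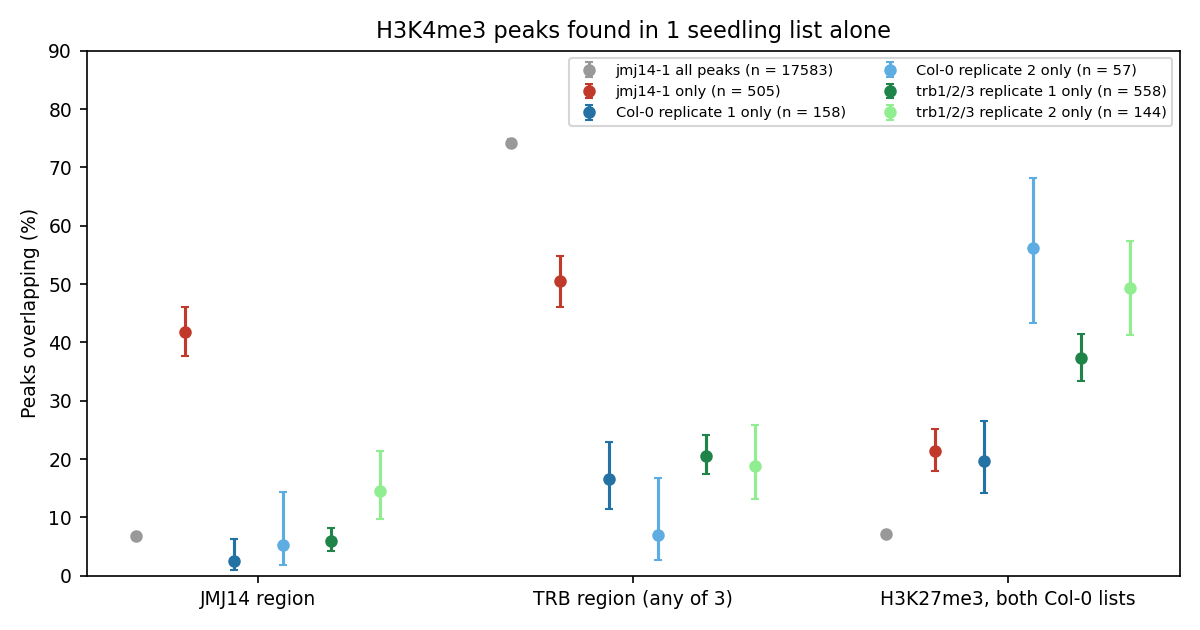
Share of H3K4me3 peaks (%) that overlapped a JMJ14 region, a region of any TRB, or H3K27me3 in both Col-0 lists, for all jmj14-1 peaks and for the peaks found in 1 of the 5 seedling lists alone; points are shares and bars 95% Wilson intervals. The jmj14-1-only peaks stand at 41.8% for JMJ14, and the peaks of the other single lists between 2.53% and 14.6%.

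The higher a jmj14-1-only peak was, the more often it lay on JMJ14. Of the regions with a fold under 2, 70 of 229 (30.6%) were on JMJ14 regions, of those from 2 to 3, 100 of 228 (43.9%), of those from 3 to 4, 29 of 35 (82.9%), and of those at 4 or more, 12 of 13 (92.3%). Shared jmj14-1 peaks in the same fold classes were at 9.12%, 10.3%, 10.9% and 4.41%, so that peaks of like height differed in each class. At a -log10 q under 10, 35.6% of 413 jmj14-1-only peaks were on JMJ14 regions against 9.25% of 1567 shared peaks, and at 10 or more 69.6% of 92 were. Regions close to another list's peak were on JMJ14 least often, at 26.2% of those under 500 bp away against 51.0% of the 51 regions at 5 kb or more.

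**Figure D2:**
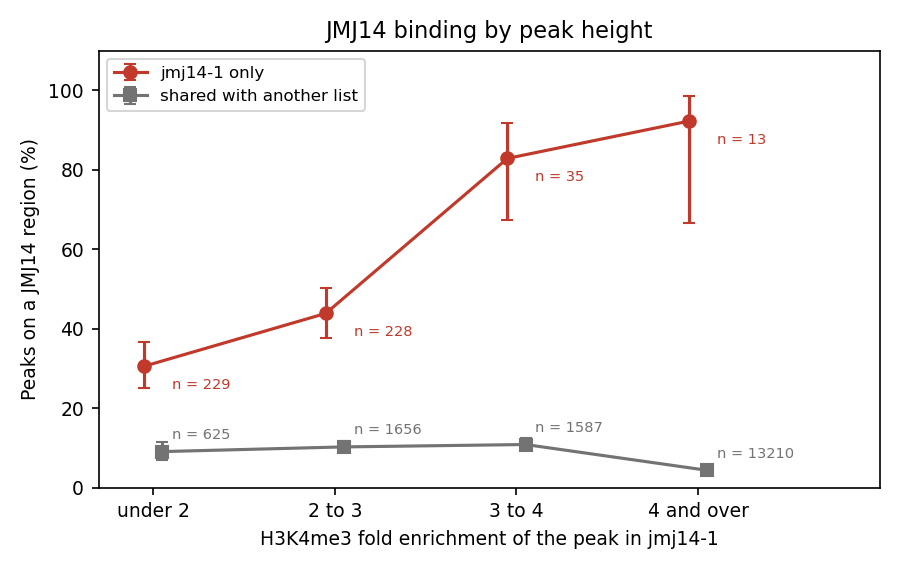
Share of peaks (%) on a JMJ14 region by the fold enrichment of the peak in the jmj14-1 H3K4me3 list, for jmj14-1-only peaks and for jmj14-1 peaks shared with another seedling list; bars are 95% Wilson intervals. The jmj14-1-only peaks go from 30.6% under a fold of 2 to 92.3% at 4 and over, while the shared peaks stay between 4.41% and 10.9%.

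JMJ14 was also strongly bound at these regions when compared with its other H3K4me3-marked sites. Over the 211 regions, the median FLAG-JMJ14 fold was 3.60 in replicate 1 and 3.47 in replicate 2, whereas over the 984 shared peaks on JMJ14 regions it was 2.78 and 2.90. These medians stood at percentiles 73.9 and 73.2 of their lists, and those of the shared peaks at 52.5 and 58.1. The FLAG-JMJ14 summit and the H3K4me3 summit of jmj14-1 were a median of 130 bp apart, compared with 200 bp at shared peaks. The 211 regions were also narrower, with a median width of 378 bp against 880 bp, and the part of width in this distance was not tested. Folds and summits were those of the highest FLAG-JMJ14 peak that overlapped the region, so a summit could lie outside it. The JMJ14 summit lay a median of 367 bp and the H3K4me3 summit 336 bp downstream of the nearest gene start, and 84.4% and 87.7% of them were on the downstream side. Both kinds of summit lay in the first stretch of the gene, over overlapping ranges.

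**Figure D3:**
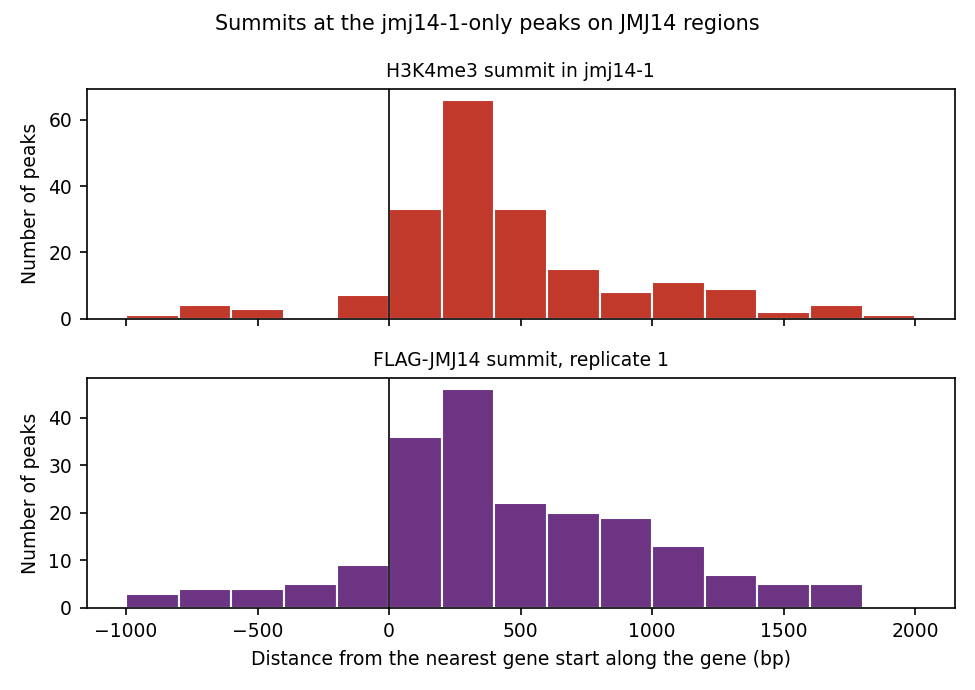
Number of jmj14-1-only peaks on JMJ14 regions (n = 211) by the distance in bp of the H3K4me3 summit (top, 197 drawn) and of the FLAG-JMJ14 replicate 1 summit (bottom, 198 drawn) from the nearest gene start, in 200 bp bins from 1000 bp upstream to 2000 bp downstream. Both histograms are highest 200 to 400 bp inside the gene.

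The 10 highest jmj14-1-only peaks were all on JMJ14 regions. The highest, with an H3K4me3 fold of 5.49 at chr1:25144902-25145542, covered the start of the non-coding RNA gene AT1G08913, upstream of HAC2, which encodes a histone acetyltransferase of the CBP family. Its FLAG-JMJ14 folds were 3.01 and 3.47, and all 12 FLAG-TRB lists had a peak on it, with folds of 2.48 to 3.79. This region held the palindrome and the 3 repeats printed above. AT3G09550, an ankyrin-repeat protein gene (chr3:2931742-2932405), had an H3K4me3 fold of 5.31, FLAG-JMJ14 folds of 6.71 and 5.89, and FLAG-TRB folds of 3.27 to 4.98 in 12 lists. AT2G18193, which encodes a nucleoside triphosphate hydrolase, had an H3K4me3 fold of 5.21 over 1092 bp, FLAG-JMJ14 folds of 6.19 and 5.85 and FLAG-TRB folds of 2.40 to 4.63. These 3 regions were bound by JMJ14 and by every FLAG-TRB library, and none carried H3K27me3 in Col-0.

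LON3, a member of the Lon protease family that degrades misfolded proteins in organelles, had an H3K4me3 fold of 5.07 (chr3:1718898-1719505), FLAG-JMJ14 folds of 4.10 and 4.42, and a FLAG-TRB peak in 11 of 12 lists. AT2G21640, annotated as a marker of the oxidative stress response, had an H3K4me3 fold of 5.04 and FLAG-JMJ14 folds of 3.65 and 4.07, but a FLAG-TRB peak in only 7 of 12 lists, with folds of 1.98 to 2.67. It was the least TRB-covered of the 10. AT5G53700, which encodes an RNA-binding protein, had an H3K4me3 fold of 4.74 (chr5:21801034-21801729) and FLAG-JMJ14 folds of 7.03 and 6.90, and the palindrome shown above lay under its JMJ14 summit. AT1G04090 (H3K4me3 fold 4.68) and AT4G05380 (4.37) had FLAG-JMJ14 folds of 6.04 and 5.31, and of 6.00 and 7.22. At AT1G04090 the replicate 1 FLAG-JMJ14 summit was outside the region, 1836 bp from the H3K4me3 summit. CIPK19, a kinase of the family activated by calcineurin B-like calcium sensors, had an H3K4me3 fold of 4.33 and FLAG-JMJ14 folds of 6.04 and 5.81. HDG4, a homeodomain-leucine zipper gene of the class that includes GLABRA2, had an H3K4me3 fold of 4.35 (chr4:9858666-9859238) and FLAG-JMJ14 folds of 2.53 and 2.16, which were below those of the other 9 regions. Its FLAG-TRB folds were 2.71 to 5.21 in 12 lists, and it shared H3K27me3 in both Col-0 lists with LON3.

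At regions touched by the strongest FLAG-JMJ14 peaks, the H3K4me3 peak could be very small. The 10 regions with the best rank of FLAG-JMJ14 fold over both lists had H3K4me3 folds of 1.84 to 4.74. AT1G04360, a RING-type ubiquitin ligase gene, headed them with FLAG-JMJ14 folds of 9.47 and 9.25, yet its H3K4me3 peak was 155 bp wide with a fold of 2.07, 292 bp from a peak of another list. The replicate 1 FLAG-JMJ14 summit was outside this peak, 319 bp from the H3K4me3 summit. CYP709B2, a cytochrome P450 gene, had FLAG-JMJ14 folds of 7.77 and 7.89 and an H3K4me3 fold of 1.88. Its replicate 1 FLAG-JMJ14 summit lay 1369 bp from the H3K4me3 summit, outside the 160 bp region. The region itself was in none of the 12 FLAG-TRB lists, and TRB binding at the JMJ14 summit was not examined. It was the only one of the 25 regions named by rule on a JMJ14 region with no FLAG-TRB peak on it. OCT6, an organic cation and carnitine transporter gene, had FLAG-JMJ14 folds of 7.32 and 7.64 and an H3K4me3 fold of 2.75 (chr1:5596729-5597311). AT5G61120, AT3G44405, AT5G09570, AT4G09965 and AT5G67090 completed the group beside AT5G53700 and AT4G05380, with H3K4me3 folds of 4.28, 3.45, 1.84, 2.57 and 2.02. At AT5G67090 the replicate 1 FLAG-JMJ14 summit was outside the 359 bp region, 375 bp from the H3K4me3 summit. AT3G44405 lay next to AT3G44400, a disease-resistance gene of the TIR-NBS-LRR class, and AT5G09570 encodes a Cox19-like protein of the CHCH family.

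TRB proteins covered a smaller share of the regions than of all jmj14-1 peaks, but not a smaller one than of peaks of like strength. A TRB region, bound in at least 2 of the 4 lists of 1 TRB, overlapped 255 regions (50.5%, 46.1 to 54.8) against 74.2% of all peaks, most of which were stronger. At a -log10 q of 10 or more, 79.3% of 92 jmj14-1-only peaks and 79.2% of all 15603 peaks were on a TRB region. At a -log10 q under 10, 44.1% of 413 jmj14-1-only peaks were (39.4 to 48.9), against 32.0% of 1567 shared peaks (29.7 to 34.3). Without a match for strength, for TRB1 the shares were 48.5% against 72.6%, for TRB2 35.4% against 44.9%, and for TRB3 29.1% against 30.9%. The FLAG-TRB lists differed widely in length, and the share of jmj14-1-only peaks ranged from 28.5% to 53.9% over the 4 FLAG-TRB1 lists, from 21.2% to 43.2% over FLAG-TRB2 and from 11.1% to 44.0% over FLAG-TRB3. With these lists cut to the length of the shortest, the shares were 20.0% for the jmj14-1-only peaks and 21.0% for all peaks, so the lower TRB share was lost. The peaks of the other single lists were on TRB regions in 7.02% to 20.6% of cases.

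JMJ14 and a TRB were both present at 160 regions (31.7%), JMJ14 without a TRB at 51, a TRB without JMJ14 at 95 and neither at 199 (39.4%). Among all jmj14-1 peaks, 5.54% had both and 24.6% neither. All 3 TRBs were present at 103 of the 211 regions on JMJ14 (48.8%) and at 30 of the 294 off JMJ14 (10.2%). Shared jmj14-1 peaks on JMJ14 regions had much the same makeup, with a TRB at 82.7% of 984 (75.8% of the 211) and all 3 TRBs at 492, so the presence of TRBs at JMJ14 sites was not particular to the regions. Regions on JMJ14 were also wider, with a median of 378 bp against 234 bp, and a wider peak has more room for an overlap. The part of width in the TRB shares was not tested.

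The palindrome was more frequent at the regions than at all jmj14-1 peaks. The palindrome, written CTTGNNNNNCAAG and read the same on both strands, was present in 33 of the 505 regions (6.53%) compared with 2.63% of all jmj14-1 peaks, although the regions were narrower. Within 500 bp of the peak centre, a window of equal length, it was in 14.9% of the regions and in 3.08% of all peaks. On JMJ14 regions the equal window held it in 29.4%, and off them in 4.42%. Around the FLAG-JMJ14 summit, within 250 bp, 57 of the 211 regions (27%) had the palindrome, a median of 61 bp from the summit, and 27 had it within 50 bp. That share was near the 27.8% of all FLAG-JMJ14 replicate 1 peaks on JMJ14 regions, so the palindrome was about as frequent here as at JMJ14 sites in general.

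TTAGGG on either strand was present in 123 regions (24.4%) against 39.7% of all jmj14-1 peaks, and in the equal window in 44.8% against 42.7%. On JMJ14 regions the equal window held it in 54.5%, and off them in 37.8%. Within 250 bp of the FLAG-JMJ14 summit, 101 of 211 regions (47.9%) had it, compared with 30.5% of the FLAG-JMJ14 replicate 1 peaks on JMJ14 regions and 33.4% of the shared H3K4me3 peaks there. Neither motif contains the other. A match in these windows is a description of the sequence, and occupancy was read only from the FLAG lists.

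H3K27me3 was present at some of the regions in wild type. In the 2 Col-0 lists, 113 (22.4%) and 128 (25.3%) of the regions had an H3K27me3 peak, and in the 2 trb1/2/3 lists 89 (17.6%) and 86 (17%) did. Both Col-0 shares were above both trb1/2/3 shares, with means of 23.9 ± 2.1% and 17.3 ± 0.420% (SD, n = 2 each), a difference of -6.53 points (exact permutation test over libraries, two-sided, p = 0.333, the smallest that 2 against 2 allows). Over all jmj14-1 peaks the shares were 7.60% and 8.36% in Col-0 and 7.50% and 7.10% in trb1/2/3. Both Col-0 lists covered 108 regions (21.4%) compared with 7.22% of all peaks, and 26 of these 108 (24.1%, 17 to 32.9) had no H3K27me3 peak in either trb1/2/3 list, whereas 2 regions showed the opposite pattern. Among all jmj14-1 peaks the same was found at 238 of 1270 (18.7%, 16.7 to 21.0), with 154 of the opposite pattern, so the share was near the background. A share of 21.4% under H3K27me3 in both Col-0 lists was not particular to jmj14-1. It was 19.6% and 56.1% in the peaks of single Col-0 lists, 37.3% and 49.3% in those of single trb1/2/3 lists, and 27.6% in shared jmj14-1 peaks with a -log10 q under 10. Regions on JMJ14 were under H3K27me3 in both Col-0 lists in 27% of cases and regions off JMJ14 in 17.3%.

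HDG4, among the 5 highest regions with H3K27me3 in both Col-0 lists, had H3K27me3 folds of 6.43 and 4.98 in Col-0 and 2.20 and 2.77 in trb1/2/3. AT3G18720, an F-box protein gene with an H3K4me3 fold of 3.98 in jmj14-1, had H3K27me3 folds of 3.62 and 3.62 in Col-0 and no peak in trb1/2/3. LON3 had low folds of 1.62 and 1.76 in Col-0 and none in trb1/2/3. AT5G61120, annotated as a zinc ion-binding protein gene, had a peak in all 4 lists, with 4.77 and 5.60 in Col-0 and 5.83 and 5.41 in trb1/2/3. The region at AT3G44753 and AT3G44755, the widest of all at 1206 bp, had 3.81 and 4.56 in Col-0 and 2.31 and 2.27 in trb1/2/3. In 4 of these 5 genes both Col-0 folds were above those of trb1/2/3 or the peak was missing there, and in AT5G61120 the groups overlapped.

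Each of the fwa and TRB-ZF lists had H3K4me3 at a minority of the regions, from 10.1% to 31.9%. The fwa lists had a peak at 25.9%, 13.5% and 30.5% of the regions in replicates 1, 2 and 3 (mean 23.3 ± 8.82%, SD, n = 3). The TRB1-ZF lists had one at 27.3%, 10.1% and 31.9%, the TRB2-ZF lists at 28.3% and 13.5%, and the TRB3-ZF lists at 27.5% and 13.5% (mean over the 7 TRB-ZF lists 21.7 ± 8.97%). The TRB-ZF and fwa shares overlapped, with a difference of -1.57 points (exact permutation test over libraries, two-sided, p = 0.742, smallest possible 0.00833). Every replicate 2 list was low, at 10.1% to 13.5%, and every other list lay between 25.9% and 31.9%, so the replicate number separated the lists and the genotype did not. The replicate 2 lists were not low at shared jmj14-1 peaks on JMJ14 regions, where they covered 73.7% to 75.5% against 64.1% to 72.4% in the others. With replicates 1 and 3 only, a choice made after seeing the data, the difference was 0.545 points (exact permutation p = 0.867).

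H3K4me3 was in all 3 fwa lists at 19 regions (3.76%) compared with 85.1% of all jmj14-1 peaks. The contrast was smaller among weak peaks, with 2.66% of the jmj14-1-only peaks and 22.8% of the shared ones at a -log10 q under 10, and at 10 or more it was 8.70% against 93.6% of all peaks. Peaks of the other single lists were in all 3 fwa lists in 8.23% and 0% (Col-0 replicates 1 and 2) and 2.15% and 2.78% (trb1/2/3 replicates 1 and 2) of cases. A low share in fwa was therefore not particular to jmj14-1. No peak in any of the 10 lists was found at 257 regions (50.9%, against 3.50% of all peaks), and a peak in all 10 at 8. At a -log10 q under 10, no peak was found in any list at 48.4% of the jmj14-1-only and 17.2% of the shared peaks. A further 74 regions were in all 6 lists of replicates 1 and 3 and in no replicate 2 list, and 13 of these were on JMJ14 regions.

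The regions on and off JMJ14 separated in these 10 lists. In fwa, 10.9%, 7.58% and 14.2% of the regions on JMJ14 had H3K4me3 in replicates 1, 2 and 3, against 36.7%, 17.7% and 42.2% of those off JMJ14. In TRB1-ZF the shares were 12.3%, 5.21% and 15.2% on JMJ14 against 38.1%, 13.6% and 43.9% off it. In TRB2-ZF they were 13.3% and 7.58% against 39.1% and 17.7%, and in TRB3-ZF 13.7% and 9.0% against 37.4% and 16.7%. The regions off JMJ14 were higher in 10 of 10 lists, replicate 2 included, by 7.66 to 28.7 points. Among regions on JMJ14, 158 of 211 (74.9%) had no peak in any of the 10 lists, compared with 99 of 294 (33.7%) off JMJ14, a difference of 41.2 points (95% Newcombe interval 32.8 to 48.7, counting error only). Shared jmj14-1 peaks on JMJ14 regions also had H3K4me3 less often, in all 3 fwa lists at 57.7% against 87.5% of all shared peaks. None of the 10 lists had a peak at 11.2% of the shared peaks on JMJ14 regions, against 3.50% of all jmj14-1 peaks. A lower share on JMJ14 was therefore not particular to the jmj14-1-only peaks, and these sets were not matched for strength. The 10 lists are not 10 independent looks at the regions, since they share tissue and replicate numbers.

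**Figure D4:**
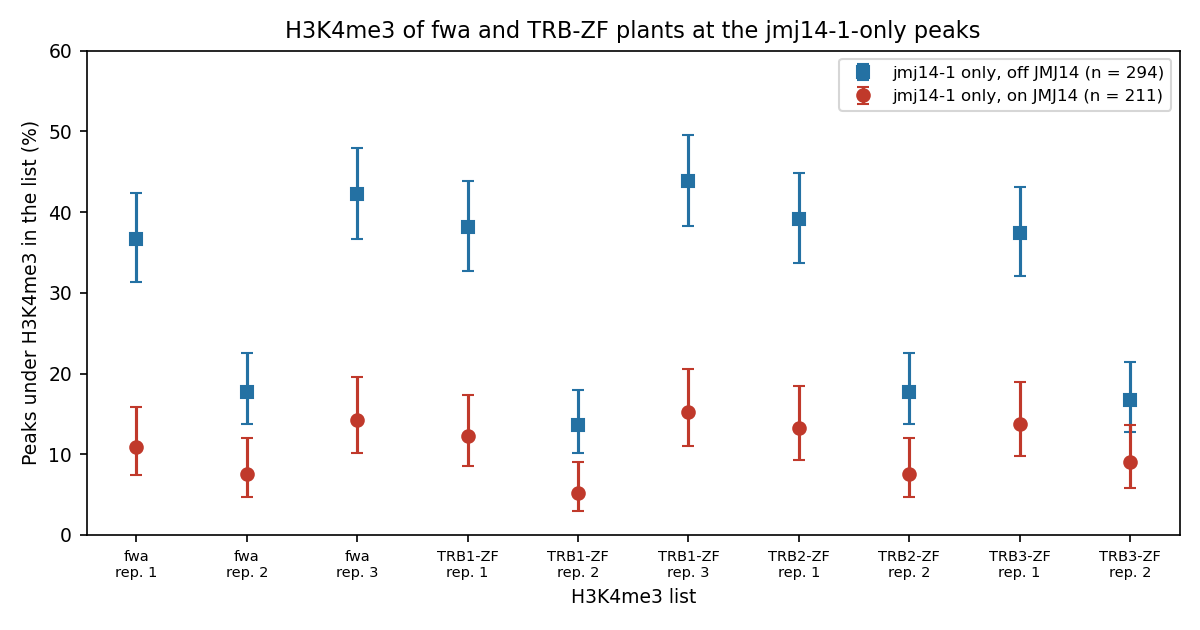
Share (%) of the jmj14-1-only peaks on (n = 211) and off (n = 294) JMJ14 regions that had an H3K4me3 peak in each of the 3 fwa and 7 TRB-ZF lists; bars are 95% Wilson intervals. In each list the share off JMJ14 is the higher one, and the 4 replicate 2 lists are low in both classes.

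Of the 10 highest peaks, 7 had an H3K4me3 peak in none of the 10 lists, the 5 highest of these being AT3G09550, AT2G18193, LON3, AT2G21640 and AT5G53700. The 5 highest of the regions with H3K4me3 in all 10 lists looked different, and only AT3G50280 among them was on a JMJ14 region. AT3G42090, a pseudogene whose upstream part held the peak, had an H3K4me3 fold of 2.74 in jmj14-1 and folds of 9.40, 7.43 and 7.91 in fwa and of 7.31 to 10.5 in the TRB-ZF lists. It was also the most isolated region, 33722 bp from the nearest peak of the 4 other seedling lists. AT3G50280, an acyltransferase gene of the HXXXD type, had 2.76 in jmj14-1, 7.12, 1.68 and 6.53 in fwa and 3.23 to 5.76 in the TRB-ZF lists. The region upstream of AT3G11591 had 2.61 in jmj14-1, 6.99, 2.50 and 7.55 in fwa and 3.02 to 8.95 in the TRB-ZF lists. AT3G49520, an F-box gene (2.88 in jmj14-1), and AT3G08990, a Yippee-type zinc-binding protein gene (2.53), had fwa folds of 2.46, 3.20 and 3.22, and of 3.74, 2.36 and 4.53.

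The regions touched the body or the 1 kb upstream part of 604 genes, of which 543 were protein-coding and 484 were overlapped in the body, and 4 regions touched none. A Col-0 H3K4me3 peak was present elsewhere on 259 of these genes (42.9%). None of the 84 genes in 10 lists of flowering, meristem, seed and chromatin regulators (floral and flowering-time MADS-box genes, the FT and TFL1 family, class I KNOX and WUSCHEL-related homeobox genes, seed maturation regulators, H3K4 demethylases with their NAC partners, H3K4 methyltransferases, Polycomb repressive complex 2 and TRB genes) had a jmj14-1-only peak, and 42 of the 84 had some jmj14-1 peak. Over all coding genes these shares were 1.98% and 67.8%, so a count of 0 in 84 is near what the overall share gives.

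The coding genes of the regions were spread over many families, counted by words in the gene descriptions, and 17 of the 22 families counted had a higher share here than among the coding genes with any jmj14-1 peak. That count was not made against all annotated coding genes. Of the 543 coding genes, 228 (42.0%) had a region on JMJ14. Cytochrome P450 genes were 11 of 543 (2.03%) against 0.661% of the coding genes with any jmj14-1 peak, and 7 of the 11 were at regions on JMJ14. Glycosyltransferases were 10 (1.84% against 0.731%), with 7 on JMJ14. Lipid transfer proteins were 6 (1.10% against 0.236%) and MYB proteins 7 (1.29% against 0.403%), with 1 and 2 on JMJ14. F-box genes were 13 (2.39% against 1.35%) and disease resistance genes 8 (1.47% against 0.736%), with 1 each on JMJ14. Among all annotated coding genes, F-box genes were 2.38%, so their share here was that of the genome. The other 5 of these families were 0.904% (P450), 0.689% (glycosyltransferases), 0.506% (lipid transfer), 0.656% (MYB) and 0.707% (disease resistance) of annotated coding genes. Other enzyme families went the other way, with 1 gene each for 2-oxoglutarate-dependent oxygenases (0.184% against 0.381%) and peroxidases (0.184% against 0.204%). Protein kinases were 36 (6.63% against 5.66%) and transporters 16 (2.95% against 2.36%), near the background. These shares were not tested, and neighbouring paralogs can share a region.

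Some genes were picked out here after their values were seen. CYP71B36 and CYP71B37, neighbouring P450 genes on chromosome 3, each had a region on JMJ14, with H3K4me3 folds of 3.43 and 2.25 in jmj14-1. UGT76C2 and UGT76C1, adjacent genes for glucosyltransferases that inactivate cytokinins, had a best fold of 2.15 on JMJ14. NAC044 and NAC085, a pair of related NAC genes known from the response to DNA damage, had 2.5 and 2.04, both on JMJ14 and both without H3K27me3 and without H3K4me3 in the 10 fwa and TRB-ZF lists. MYB28, a regulator of aliphatic glucosinolate synthesis, had 1.80 on JMJ14 with H3K27me3 in both Col-0 lists. MYB60, known from guard cells, had 1.96 off JMJ14. QRT3, a pectin-degrading enzyme gene needed for pollen grains to separate, had 1.91 on JMJ14.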

How the data were processed

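ChIP-seq peak lists of 33 libraries were analysed. The authors aligned reads to TAIR10, keeping unique alignments with 0 mismatches, removed duplicates, called peaks with MACS2 and filtered sites that had peaks in several Col-0 replicates. The submitters' processing notes name Bowtie2 2.1.0, SAMtools 1.9 and MACS2 2.1.1. The control of the peak calls is not given in the sources used here. The deposited lists give each peak's fold enrichment, a ratio over local background, its -log10 q, and its summit position. They hold no library depth, so the depth behind each list and its precision are unknown. Values of different lists were not rescaled.

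Intervals that differed only in summit were taken as 1 peak with its highest fold, and organelle peaks were left out. JMJ14 and TRB regions were stretches under a peak in at least 2 lists, merged across gaps of up to 100 bp, and those shorter than 100 bp were dropped. Genes and sequences came from RefSeq TAIR10.1, and no peak ran past a chromosome end. The members and gene lists were chosen with earlier results of these data known. The text names the 10 regions with the highest jmj14-1 fold, the 10 on JMJ14 regions with the best mean FLAG-JMJ14 percentile, genes of the lists (none held a region), the 5 highest regions in all and the 5 highest in none of the 10 fwa and TRB-ZF lists, and the 5 highest with H3K27me3 in both Col-0 lists. Overlap was 1 bp or more. Where nothing says that libraries came from separate plants, p-values measure only the spread between libraries. The labels number the replicates. Same-numbered fwa and TRB-ZF lists deviated together from their group means (13 pairs, correlations 0.616 to 0.828). Lists of replicate 1 in one group and replicate 3 in another did so too (0.523 to 0.687). The numbers thus set replicate 2 apart and do not show that replicates 1 and 3 are paired by number. In groups of 2 libraries the deviations mirror each other, so the pairs are not independent. A replicate block was run beside the main test. Alternatives covered the q threshold, overlap, list length, gap, left-out libraries, gene start distance and motif window. Versions were Python 3.11.15, scipy 1.17.1, numpy 2.4.6 and matplotlib 3.10.9, and the scripts were tested on simulated data.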

Additional observations from a re-analysis of the deposited data

How the results depend on the processing

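All values rest on 1 jmj14-1 library and on lists of unknown depth, and the cause of each change below was not tested. With jmj14-1 peaks at a -log10 q of at least 10, 92 regions were left, with 69.6% on JMJ14, 79.3% on a TRB, 91.3% near a gene start, TTAGGG in 50% and the palindrome in 16.3%, and the TRB-ZF minus fwa difference turned to 1.92 points. Regions at least 500 bp from other peaks gave 47.8% on JMJ14, 54.9% on a TRB and 84.6% near a start. Excluding Col-0 lists only gave 926 regions, 82% near a start, and a difference between regions on and off JMJ14 in having no fwa or TRB-ZF peak of 28.6 points. With 5 lists cut to the shortest, 318 regions were left, with 48.4% on JMJ14, 71.7% on a TRB, 36.0% under fwa H3K4me3, 89.6% near a start and TTAGGG in 38.7%. Requiring coverage of at least 50% of the width gave 36.4% on a TRB. Other lists held to a -log10 q of 10 gave 29.3% on JMJ14, 34.3% on a TRB, 14.9% under H3K27me3 and 11.7% under fwa H3K4me3. Within 1 kb of a JMJ14 region lay 53.9% of the regions (13.1% of all peaks). Peaks in all 4 lists of a TRB gave 29.5% (38.7% of all peaks), and FLAG-TRB lists cut to the shortest 20.0%. Coding genes only gave 74.1% near a start, and a distance of 500 bp gave 58.0%. The window of 500 bp around the centre gave TTAGGG in 44.8% and the palindrome in 14.9%.

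Leaving out 1 library at a time gave 510 to 849 regions, 29.4% to 45.3% on JMJ14, 41.0% to 50.5% on a TRB, 21.4% to 25.3% under H3K27me3, 19.7% to 35.5% under fwa H3K4me3, and -6.49 to 2.02 points for TRB-ZF minus fwa. Without Col-0 replicate 1 the regions were 849, with 29.4% on JMJ14, 42.8% on a TRB and 35.5% under fwa H3K4me3. Without FLAG-TRB1 replicate 3 or 4 the TRB share was 41.4% or 41.0%. The TRB-ZF difference turned to 2.02 points without fwa replicate 3, to 0.363 without TRB1-ZF replicate 2, and to 0.545 with replicates 1 and 3 only, which was chosen after seeing the data, as were the alternatives of the on and off difference. Of the 25 named regions, 19 stayed members at a -log10 q of 10, 20 at a gap of 500 bp and 20 with the 5 lists cut to the shortest. Leaving out a seedling list cannot remove a member.

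With the replicate block the difference was -1.57 points for TRB-ZF minus fwa (exact permutation p = 0.781) and -6.53 points for H3K27me3 (exact permutation p = 0.500), and neither call changed. For H3K27me3 the same-numbered libraries share only a number (correlation of deviations -0.0509, 2 pairs).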
